A study of Mus musculus with 6 samples.

Results

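The small nucleolar RNAs (snoRNAs) and the genes that carry them were followed in CD4 T cells of naive female mice whose fathers differed in their Y chromosome (ChrY). A member was any gene whose annotated symbol was Snord, Snora or Snhg followed by a digit, or Gas5, and each gene was read from its brightest transcript cluster, the probe group that stands for a transcript on the array. Of 19938 genes measured by a cluster with 1 symbol, 57 were members: 31 box C/D snoRNAs (Snord), 20 box H/ACA snoRNAs (Snora) and 6 host genes, namely Gas5, Snhg5, Snhg11, Snhg15, Snhg16 and Snhg17.

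The arrays came from 3 pools of wild type C57BL/6J females (B6) and 3 pools of C57BL/6J females of the B6-ChrYSJL strain, in which the ChrY is that of SJL and the rest of the genome is C57BL/6J. All mice were 8 weeks old and came from litters of both sexes, each pool held 5 mice, and CD4+TCRB+ cells were sorted from lymph nodes (inguinal, brachial and axillary). Females carry no ChrY, and the SJL ChrY was that of their fathers. The comparison was made to learn whether the resting transcriptome of CD4 T cells differs between female offspring of the strains. Nothing in the labels ties a pool to a litter, and p-values measure the spread between pools.

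snoRNAs are short RNAs that guide the chemical modification of ribosomal RNA in the nucleolus. Box C/D snoRNAs pair with their target and direct ribose methylation by fibrillarin, box H/ACA snoRNAs direct the conversion of uridine to pseudouridine by dyskerin, and a few, among them U3, U8, U14 and U17, are needed for cutting the ribosomal RNA precursor. In mammals most are cut out of introns of host genes, many of which encode ribosomal proteins, while Gas5 and the Snhg genes are long non-coding hosts whose introns hold snoRNAs. Activated T cells raise ribosome production strongly, and resting ones keep it low.

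In the RefSeq gene table the C/D members were 45 to 148 bases long with a median of 68, and the H/ACA members 61 to 205 with a median of 125. Most lie inside a host gene, and the array does not separate a finished snoRNA from the host transcript that still holds it. RNA came from the RNeasy Plus Mini kit, and its recovery of RNAs this short was not measured. A snoRNA value below is thus the signal of its cluster, not a measured level of finished snoRNA. Of the 57 members, 54 had a mean above the background level of 5.98, set so that 95% of 1205 transcripts of smell and pheromone receptors lay under it. The 3 below it were Snord52, Snord58b and Snora2b. All values are log2 signals, and a difference is the mean of the B6-ChrYSJL pools minus the mean of the B6 pools.

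Medians of the 6 arrays ran from 6.41 to 6.44, and arrays correlated with each other at 0.991 to 0.993. The 5 T helper markers measured, among them Cd4 and Cd3e, had mean levels of 11.8 to 11.9 in every pool, and none passed an unadjusted p of 0.05. Markers of other cells were not equal. Both CD8 T cell markers were lower in B6-ChrYSJL (range of the mean level 7.42 to 7.62 in B6 and 7.03 to 7.18 in B6-ChrYSJL). Of 4 B cell markers (6.11 to 6.30 and 6.15 to 6.89), 1 was higher, H2-Ab1 (0.64, SE 0.22), with overlapping pools. Cd79a, Cd79b and Ms4a1 were at 0.23, 0.20 and 0.37 and did not pass, and Ms4a1 had a mean of 5.04, below background. Of 3 stromal markers 2 were higher (6.49 to 6.51 and 6.57 to 6.71). None of 3 myeloid markers (6.29 to 6.61 and 6.13 to 6.39) or 2 natural killer markers (4.36 to 4.49 and 4.19 to 4.55, below background) passed, and the red cell markers had no cluster with 1 symbol. The part of these shifts in the snoRNA values was not tested, and in a bulk sample fewer cells of a type cannot be told apart from less RNA per cell.

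Most members lay below zero. At an unadjusted p under 0.05, 18 of 57 members (31.6%) were lower in B6-ChrYSJL and 1 was higher, where 5.92% of the 23410 tested clusters were lower and 4.69% higher. By class, 11 of 31 C/D, 5 of 20 H/ACA and 2 of 6 host genes were lower. Differences were below zero for 21 of 31 C/D, 20 of 20 H/ACA and 5 of 6 host genes, against 51.1% of all clusters. The median difference was -0.10 for C/D, -0.10 for H/ACA and -0.13 for host genes, beside -0.004 for all clusters. Of the 14394 clusters above background, as most members were, 7.16% were lower and 55.6% below zero, with a median of -0.016. No member passed an FDR of 0.05 in limma, where 0.0171% of all clusters did. Snord14e, Snord33 and Snord52, 3 members, passed an FDR of 0.1, which 0.0726% of all clusters (17) passed. With a mean-variance trend 4 members passed an FDR of 0.05, while 119 of all clusters passed an FDR of 0.1. With an unmoderated model 0 members passed an FDR of 0.05. Without B6-ChrYSJL replicate 3 the lower members numbered 10, with 4.31% of all clusters lower. The members at an FDR of 0.1 numbered 0 without B6 replicate 1, B6 replicate 2 or any 1 of the B6-ChrYSJL pools, and 2 without B6 replicate 3.

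**Figure D1:**
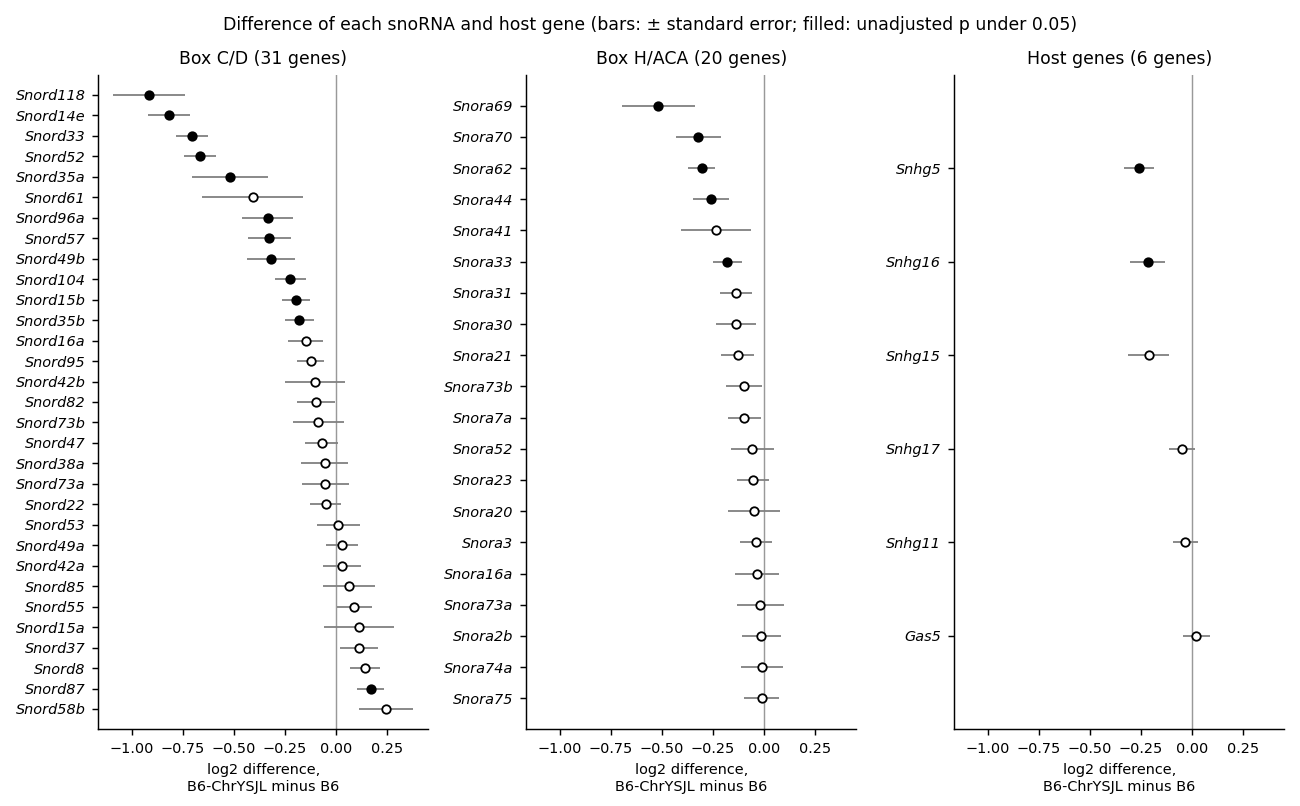
Difference of each of the 57 members in log2 units (horizontal axis, B6-ChrYSJL minus B6), in a panel for each class. Points are limma estimates with bars of 1 standard error, and filled points had an unadjusted p under 0.05. The C/D panel runs from -0.91 to 0.25, all 20 H/ACA points lie left of zero, and Gas5 is the 1 host gene to the right of it.

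The groups of pools did not overlap for 15 members in the lower direction and for 2 in the higher, where 9.42% and 7.68% of all clusters were separated in those directions. Of the 14394 clusters above background, 1759 were separated in the lower direction and 1145 in the higher. The members also moved further than most clusters, with a median absolute difference of 0.12 against 0.08, and their spread within groups was wider as well, with a median SD of 0.12 against 0.10.

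The 2 lowest C/D differences belonged to snoRNAs with known parts in cutting the precursor. Snord118 is U8, which is needed for maturation of the large subunit RNAs and is transcribed from a gene of its own rather than from an intron. Its values were 9.97, 9.28 and 9.74 in the B6 pools and 8.49, 8.91 and 8.84 in the B6-ChrYSJL pools. Every B6 pool was above every B6-ChrYSJL pool, although the B6 pools were themselves widely spread. The difference was -0.91 (SE 0.18), a 1.88-fold lower signal (adjusted p = 0.22). The gene has 2 clusters with identical values, which were counted once.

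Snord14e is a copy of U14, which acts in cutting and methylating the small subunit RNA and lies in an intron of Hspa8. It had 11.54, 11.34 and 11.54 in B6 and 10.45, 10.72 and 10.80 in B6-ChrYSJL. The groups were far apart relative to their spread, at -0.82 (SE 0.10, 1.76-fold, adjusted p = 0.071). Copies of U14 are closely alike, so signal of other copies may be part of this value. Other copies were held by clusters with several symbols, which are set apart below. Those for Snord14d and Snord14c, with Hspa8, were at -0.53 (SE 0.11) and -0.55 (SE 0.12) without overlap. The cluster for Snord14a, with Rps13, was at -0.007 (SE 0.09) with overlap, so U14 copies did not all separate.

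Snord33 and Snord35a are methylation guides in introns of Rpl13a, a host known for snoRNAs that respond to lipid stress. Snord33 had 8.31, 8.31 and 8.24 in B6 and 7.62, 7.68 and 7.45 in B6-ChrYSJL. Its pools were tight in both groups and the gap was wide, at -0.70 (SE 0.08, 1.63-fold, adjusted p = 0.053). Snord35a had 7.09, 7.34 and 7.10 in B6 and 7.08, 6.66 and 6.23 in B6-ChrYSJL, a difference of -0.52 (SE 0.19, adjusted p = 0.41). B6-ChrYSJL replicate 1 sat just under the lowest B6 pool, and the difference was -0.31 without B6-ChrYSJL replicate 3. It no longer passed without that pool, without B6 replicate 2 or without B6-ChrYSJL replicate 2.

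Snord52, a methylation guide in an intron of the non-coding host 1110038B12Rik, had 4.62, 4.66 and 4.46 in B6 and 3.96, 3.95 and 3.84 in B6-ChrYSJL. The separation was clean, at -0.67 (SE 0.08, adjusted p = 0.062), yet all 6 values lay below the background level.

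**Figure D2:**
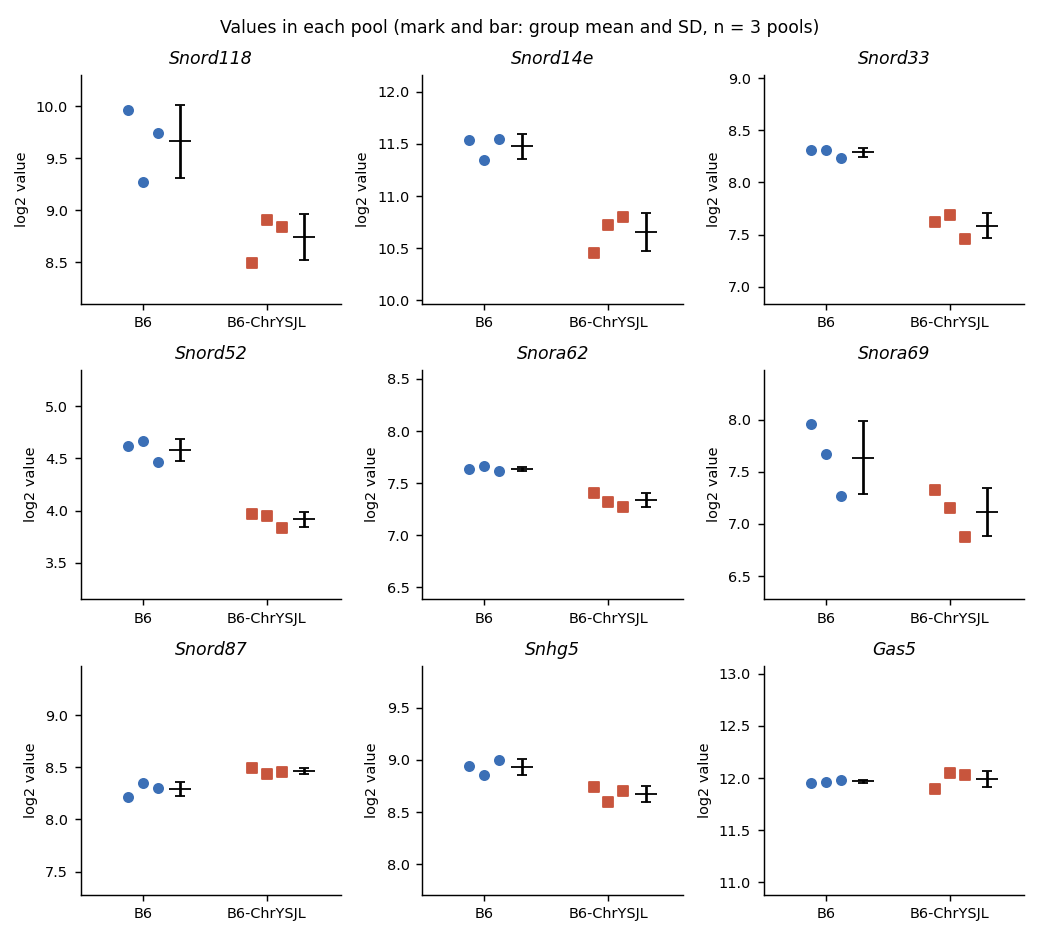
log2 value in each pool (vertical axis, 1 panel per gene spanning the same 2.2 log2 units) for 9 members, with blue circles for B6 and red squares for B6-ChrYSJL; black marks and bars give the mean and SD over 3 pools. Groups do not overlap for Snord118, Snord14e, Snord33, Snord52, Snora62, Snhg5 and, in the opposite direction, Snord87, and they overlap for Snora69 and Gas5.

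The other C/D members at an unadjusted p under 0.05 were smaller in size. Snord96a, in Rack1, differed by -0.33 (SE 0.13), Snord57, in the gene for the C/D core protein Nop56, by -0.33 (SE 0.10), and Snord49b by -0.32 (SE 0.12). Snord104 differed by -0.22, Snord15b, in the ribosomal protein gene Rps3, by -0.20, and Snord35b by -0.18. Among these 6 only Snord49b had overlapping pools. Snord61, in Rbmx, was at -0.41 with a wide error (SE 0.25, adjusted p = 0.59) and overlapping pools.

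Snord87, a guide whose locus is spanned by the non-coding host Snhg6 and by Mcmdc2, was the 1 member higher at that threshold. It had 8.22, 8.35 and 8.30 in B6 and 8.49, 8.44 and 8.46 in B6-ChrYSJL. The pools did not overlap, and the difference was 0.17 (SE 0.07, adjusted p = 0.43). It no longer passed without B6 replicate 1, B6 replicate 3, B6-ChrYSJL replicate 1 or B6-ChrYSJL replicate 3. Mcmdc2 was itself higher without overlap, at 0.28 (SE 0.08, adjusted p = 0.36), with a mean of 5.39, below the background level. Snord87 relative to Mcmdc2 was at -0.11 (SE 0.08) with overlap, and Snhg6 had no cluster with 1 symbol. Snord8, at 0.14 (adjusted p = 0.54), was the other member with all B6-ChrYSJL pools above all B6 pools.

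Snord22, or U22, a processing snoRNA in Snhg1, was at -0.05 (SE 0.08, adjusted p = 0.85) with overlapping pools, so precursor-cutting members did not all separate. The 19 C/D members that passed in neither direction ran from -0.41 for Snord61 to 0.25 for Snord58b, a member below background.

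Among H/ACA members, Snora62, a pseudouridine guide in Rpsa, was the most regular. It had 7.63, 7.66 and 7.62 in B6 and 7.41, 7.32 and 7.28 in B6-ChrYSJL. No pools overlapped, and the difference was -0.30 (SE 0.07, adjusted p = 0.25). Snora69, in the X-linked gene Rpl39, had the largest H/ACA difference at -0.52 (SE 0.18), but its pools ran from 7.27 to 7.96 in B6 and from 6.87 to 7.33 in B6-ChrYSJL and overlapped. Snora70, in the X-linked gene Rpl10, was at -0.32 (SE 0.11) and overlapped as well. Snora44, in Snhg12, and Snora33, in Rps12, were at -0.26 (SE 0.09) and -0.18 (SE 0.07) without overlap.

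The other 15 H/ACA members did not pass. Snora73a and Snora73b, the U17 copies in Snhg3 that act in cutting the precursor, were at -0.02 (SE 0.11) and -0.10 (SE 0.09). Differences of this size were within the spread of the pools. The count of 20 of 20 below zero was 17 under repeated quantile normalization and 13 to 19 with 1 pool left out.

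**Figure D3:**
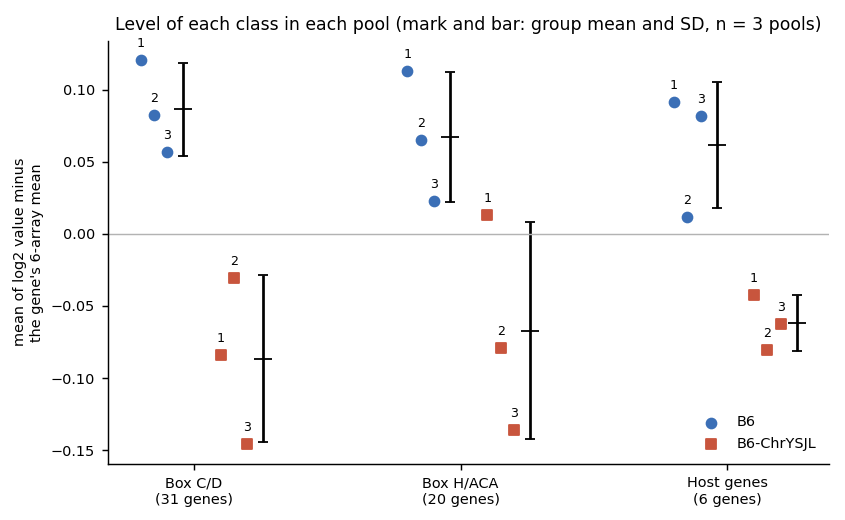
Mean over a class of each gene's log2 value minus its own mean over the 6 arrays (vertical axis), for each pool, numbered by replicate; circles are B6, squares B6-ChrYSJL, and black marks and bars give the mean and SD over 3 pools. In all 3 classes the B6 pools lie above the B6-ChrYSJL pools, by the least for H/ACA, where B6 replicate 3 is at 0.02 and B6-ChrYSJL replicate 1 at 0.01.

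Over all 51 snoRNAs, the mean level relative to each gene's own mean was 0.12, 0.08 and 0.04 in the B6 pools and -0.05, -0.05 and -0.14 in the B6-ChrYSJL pools. B6-ChrYSJL replicate 3 was the lowest, and there 41 of 51 snoRNAs were below their own mean, against 31 and 29 in the other 2 pools of its group and 11, 17 and 21 in B6. That pool also had the highest B cell marker level of the 6 (6.89) and the lowest CD8 marker level (7.03). Relative to each gene's own mean, B6-ChrYSJL replicates 1 to 3 had B cell marker levels of -0.23, 0.26 and 0.51. Their CD8 marker levels were -0.17, -0.15 and -0.30, and their stromal marker levels 0.15, 7.6e-05 and 0.07. Whether these levels go with the snoRNA level was not tested. Across the 51 snoRNAs, the difference had r = -0.14 and rho = -0.25 with the level and r = -0.005 and rho = -0.09 with the length, given as a description over genes that share the same arrays.

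Among host genes, Snhg5 had the largest difference. It had 8.95, 8.85 and 9.004 in B6 and 8.74, 8.59 and 8.70 in B6-ChrYSJL. All B6 pools were above all B6-ChrYSJL pools, with a difference of -0.26 (SE 0.07, adjusted p = 0.34). Snhg16 was at -0.22 (SE 0.09, adjusted p = 0.44) with overlapping pools, and it no longer passed without B6 replicate 1, B6 replicate 3, B6-ChrYSJL replicate 1 or B6-ChrYSJL replicate 3. Snhg15 was at -0.21 (SE 0.10, adjusted p = 0.51) and did not pass. Gas5, named for its rise in growth-arrested cells and the host of Snord47, had 11.95, 11.97 and 11.98 in B6 and 11.90, 12.04 and 12.03 in B6-ChrYSJL. Its difference was 0.02 (SE 0.07, adjusted p = 0.93), and that of Snord47 was -0.07 (SE 0.08). Snhg17 and Snhg11 were at -0.05 (SE 0.06) and -0.03 (SE 0.06).

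Host transcripts of this kind often start with a pyrimidine tract, the feature that ties translation of ribosomal protein messages to growth signals. The start regions below are those of Gas5, Snhg5, Snhg16 and Snhg15 and of non-coding hosts of snoRNAs that were lower. They run from 40 bases before to 30 bases from the start of transcription, 5′ to 3′, from RefSeq (GRCm38.p6), with capitals for a C followed by at least 4 further C or T on the transcribed strand, beginning within 10 bases of the start.
Gas5, first annotated start (chr1:161034561-161034630, plus strand): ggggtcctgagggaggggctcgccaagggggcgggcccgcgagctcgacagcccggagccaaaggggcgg
Gas5, a further start (chr1:161035126-161035195, plus strand): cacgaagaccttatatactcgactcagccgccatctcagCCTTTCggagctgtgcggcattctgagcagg
Snhg5 (chr9:88522868-88522937, minus strand): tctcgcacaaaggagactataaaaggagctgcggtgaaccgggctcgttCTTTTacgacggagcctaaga
Snhg16 (chr11:116671620-116671689, plus strand): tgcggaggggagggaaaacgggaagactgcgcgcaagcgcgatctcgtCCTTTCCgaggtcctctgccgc
Snhg15 (chr11:6528731-6528800, minus strand): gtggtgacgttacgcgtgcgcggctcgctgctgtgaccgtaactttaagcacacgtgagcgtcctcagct
1110038B12Rik, host of Snord52 (chr17:34952439-34952508, minus strand): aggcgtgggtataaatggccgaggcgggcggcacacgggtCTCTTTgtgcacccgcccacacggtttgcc
2410006H16Rik, host of Snord49b (chr11:62602837-62602906, plus strand): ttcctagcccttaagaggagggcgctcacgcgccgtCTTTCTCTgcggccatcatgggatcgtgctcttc
Snhg12, host of Snora44 (chr4:132308638-132308707, plus strand): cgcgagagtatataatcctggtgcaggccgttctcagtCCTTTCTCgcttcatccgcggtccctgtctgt
Gm36220, which spans Snord104 (chr11:106500875-106500944, plus strand): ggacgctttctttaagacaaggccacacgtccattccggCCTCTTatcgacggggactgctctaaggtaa

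A run so marked was found in 30.7% of all 32851 start entries and in 51.6% of the 91 entries of Rpl and Rps genes. In Snhg5 and Snhg16, the hosts that were lower, it begins only at base 10 and base 9 of the transcript. Neither transcript thus starts with a tract at its annotated start. Gas5, at 0.02, holds a run at 1 of its 2 starts. For 1110038B12Rik the run begins at base 1 of the start shown and at base 4 of another annotated start, which is not shown. No run was found within these limits for Snhg15, Snhg11 or Snhg17. The letters TATAAA within the 40 bases before the start, on the transcribed strand, occur in 2.31% of all entries and are present in Snhg5 and 1110038B12Rik. These matches are a description of letters and were not tested against the differences.

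Of the 51 snoRNAs, 50 lay within the span of another gene in the RefSeq table, and Snord118 lay in none. For 26 of them the table gave 1 spanning gene that was also measured by a cluster with 1 symbol, which made 22 hosts, 10 of them ribosomal protein genes. The median host difference was 0.01, the range was -0.20 to 0.18, and 1 of the 22 hosts, Srcap, the host of Snora30, passed an unadjusted p of 0.05 (-0.20, SE 0.07). The snoRNA lay below its host in 18 of 26 pairs.

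Hspa8, the host of Snord14e that encodes a constitutive chaperone, had 12.71, 12.78 and 12.76 in B6 and 12.75, 12.66 and 12.75 in B6-ChrYSJL. Its difference was -0.03 (SE 0.06), so that Snord14e was lower relative to its host by a difference of -0.79 (SE 0.14), and the 2 groups of pools did not overlap on that scale. Rpsa was at -0.001 (SE 0.06), and Snora62 relative to it at -0.30 (SE 0.04), also without overlap. The other pairs lower than the host without overlap were Snora33 with Rps12 (-0.24, SE 0.05), Snord16a with Rpl4 (-0.25, SE 0.11) and Snord82 with Ncl (-0.18, SE 0.07), which together made 5 of 26, and none of the 26 was higher without overlap. No share over all clusters exists for this scale, so the count is a description. Snord8, which 2 genes span and which is outside the 26, was higher than Chd8, 1 of them, by 0.27 (SE 0.09) without overlap. Across the 26 pairs the differences of snoRNA and host had r = 0.05 and rho = 0.03, a description over genes, since pairs share arrays and some share a host.

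**Figure D4:**
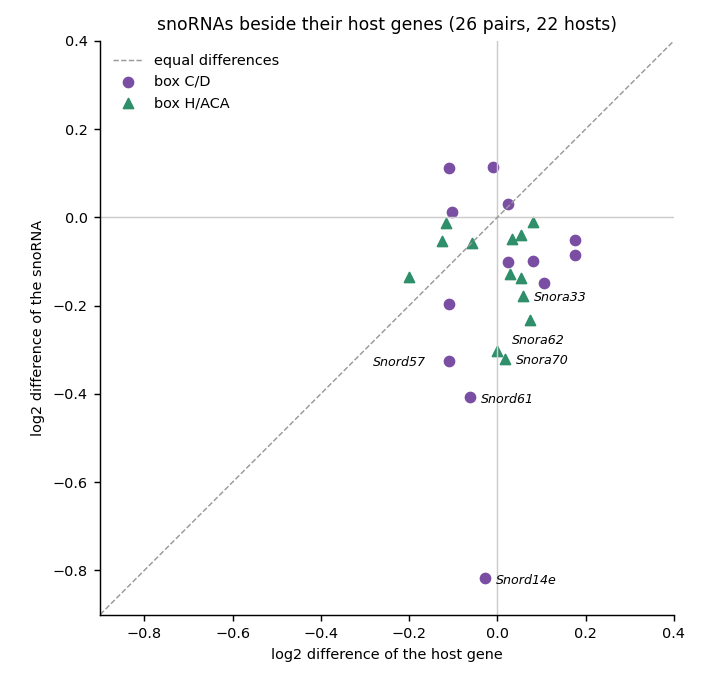
Difference of a snoRNA (vertical axis, log2) against the difference of its host gene (horizontal axis, log2) for 26 pairs, circles for C/D and triangles for H/ACA, with a dashed line where both are equal. Hosts lie between -0.20 and 0.18, while snoRNAs reach -0.82 at Snord14e.

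In 10 hosts the table placed a pair of members in the same gene. Snord33 and Snord35a in Rpl13a were both lower and differed from each other by -0.18 (SE 0.21). Snord49a and Snord49b in 2410006H16Rik were at 0.03 and -0.32, a gap of 0.35 (SE 0.16). Snora16a and Snora44 in Snhg12 were at -0.03 and -0.26, a gap of 0.22 (SE 0.13). In all 10 the pools of the strains overlapped in the gap between neighbours, so no neighbour was separated from its partner beyond the spread of the pools. Snord73a and Snord73b in Rps3a1 were at -0.05 and -0.09, and Snora73a and Snora73b at the values given above.

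Genes for proteins that build or use snoRNA particles, handle their RNA ends and introns, or degrade host transcripts were set beside the RNAs. Of the 37 genes, 3 were lower at an unadjusted p under 0.05 (8.11%, near the 5.92% of all clusters and the 7.16% of clusters above background) and 0 were higher, none passed an FDR of 0.1, and the median difference was -0.06. The lower ones were Rpap3, a subunit of the complex that assembles C/D particles (-0.24, SE 0.10), Nolc1, a nucleolar chaperone of snoRNA particles (-0.19, SE 0.07), and Smg1, a kinase of nonsense-mediated decay, the pathway that degrades many spliced host transcripts (-0.18, SE 0.07). This count was 0 without B6-ChrYSJL replicate 2 and 1 without B6 replicate 2. With an unmoderated model 8 of the 37 passed, where 5.79% of all clusters were lower. Differences were below zero for 28 of the 37 (75.7%), beside 51.1% of all clusters and 55.6% of those above background. Pools did not overlap for 9 of the 37 in the lower direction and 2 in the higher, beside 9.42% and 7.68% of all clusters. None of the 4 core C/D proteins passed. Fbl, the methyltransferase, was at -0.07 (SE 0.06) without overlap, Nop56 at -0.11 (SE 0.07) and Nop58 at 0.05 (SE 0.06). The 4 core H/ACA proteins did not pass either. Dkc1, the pseudouridine synthase, was at -0.06 (SE 0.07) and Nhp2 at -0.09 (SE 0.06), the latter without overlap. In each core set 3 of the 4 differences were below zero.

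Other small RNAs with single-symbol clusters included a further C/D snoRNA under an older name. Rnu3a, a U3 gene needed for cutting the small subunit RNA, had 9.96, 9.50 and 9.53 in B6 and 9.02, 9.43 and 8.89 in B6-ChrYSJL. Its pools did not overlap, although B6-ChrYSJL replicate 2 was close to the lowest B6 pool, and the difference was -0.55 (SE 0.16, adjusted p = 0.36). Rnu12, the U12 RNA of the minor spliceosome, was at -0.52 (SE 0.12, adjusted p = 0.28) without overlap. Rny3, a Y RNA, and Terc, the telomerase RNA, which carries an H/ACA domain, were at -0.33 (SE 0.13) and -0.26 (SE 0.11) with overlap.

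In all, 4 of 11 such genes (36.4%) were lower and 0 higher, beside 5.92% and 4.69% of all clusters, with a median of -0.21. Rmrp, Rn7sk and Rpph1 were at -0.11, 0.07 and -0.04 and did not pass. Of the 11, 4 lay below background, and 2 were separated in the lower direction, beside 9.42% of all clusters. Their mean level relative to each gene's own mean was 0.29, 0.02 and 0.02 in the B6 pools, so B6 replicate 1 stood out. It was -0.14, -0.06 and -0.12 in the B6-ChrYSJL pools. Of 3 Scarna genes, the Cajal body relatives of snoRNAs, Scarna17 was lower (-0.24, SE 0.10). The 291 Mir genes ran the other way, with 7 lower and 40 higher, beside 5.92% and 4.69% of all clusters, and a median of 0.05. Of these, 186 lay below background, as did 9016 of the 23410 clusters.

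**Figure D5:**
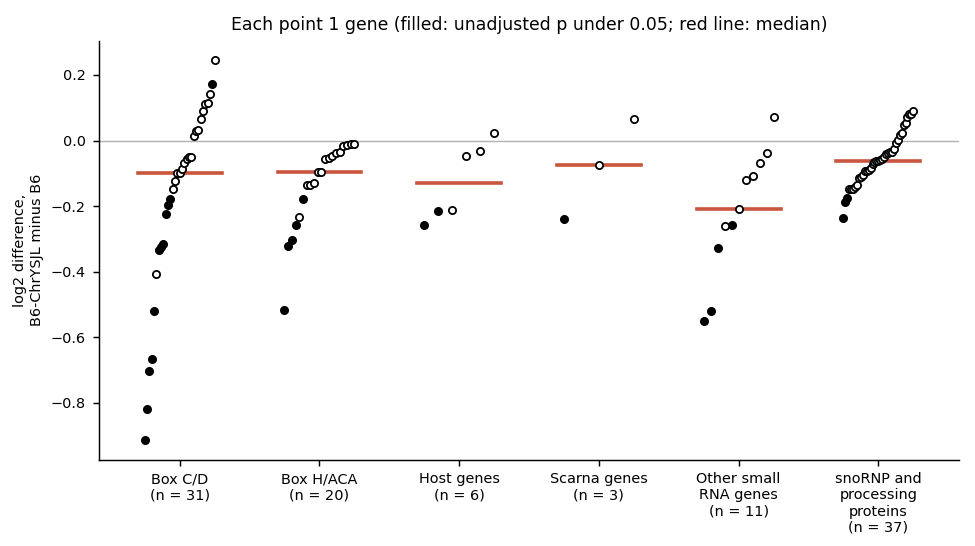
Difference of each gene (vertical axis, log2, B6-ChrYSJL minus B6) in the member classes and in the lists set beside them, with filled points for an unadjusted p under 0.05 and a red line at each median. The snoRNP protein genes stay between -0.24 and 0.09, a narrower range than that of the C/D genes.

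A further 41 clusters carried a member name together with another symbol and were not read as genes. The 24 with a Snord116 symbol lay below background, and none passed an unadjusted p of 0.05. Of the other 17, 4 were lower and 0 higher at that threshold, beside 5.92% and 4.69% of all clusters. Differences were below zero for 15, beside 51.1% of all clusters, the median was -0.14, and 7 lay below background. Some of these clusters held identical values, and clusters that share the symbols Snord14d and Snord14c were among the lower ones, so they are not 17 separate readings.

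Of the 18 members lower at an unadjusted p under 0.05, 6 stayed past it with each of the 6 pools left out in turn, namely Snord118, Snord14e, Snord33, Snord52, Snora62 and Snhg5. The other 12 lost it without at least 1 pool. Of 3 members on chromosome X, Snora69 and Snora70 were lower and Snord61 did not pass, beside 5.92% of all clusters lower. All 3 had a difference below zero, beside 51.1% of all clusters. The pools overlapped for all 3, and Snora69 and Snora70 were among those that lost the threshold without at least 1 pool.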

How the data were processed

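RNA of sorted CD4 T cells was amplified from 50 ng and hybridized to 6 Affymetrix Mouse Gene 1.0 ST arrays. The authors applied RMA (background correction, quantile normalization and summary over probes) in Partek and the deposited values are log2, with 1 for each cluster on each array. GCOS and mm9 also appear in the submitters' processing notes. RNA came from a spin column kit (RNeasy Plus Mini), and recovery of small RNAs was not measured here, so snoRNA values are cluster signals.

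Clusters were named from the platform annotation, with symbols updated through RefSeq (GRCm38.p6), where all 57 members matched. Hosts were genes whose span holds a snoRNA; strand was not used. limma 3.58.1 (R 4.3.3; lmFit and eBayes without a block) was run on the 23410 clusters with a symbol, and every FDR or adjusted p is its Benjamini-Hochberg value over that whole set. Pools were the replicates, and the number of arrays limits the precision (median SE 0.08). The steps were tested on simulated data. Same-numbered pools did not deviate together.

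Members and lists were chosen with earlier results of these data known. Named were members at an unadjusted p under 0.05 with the 10 lowest and 10 highest differences, all hosts, the processing families, the 5 brightest of each class, their hosts, and core or changed particle proteins. The other named genes, among them Snord8, Snord16a, Snord61, neighbours in a shared host and the other small RNAs, were chosen after their values were seen. Alternatives covered variance models, filters, normalization, clusters per gene, a block and each pool left out; an FDR of 0.1 was added after seeing the data.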

Additional observations from a re-analysis of the deposited data

How the results depend on the processing

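Under the 14 alternatives no class median and no named gene past an unadjusted p of 0.05 changed sign, while 5 named genes that had not passed did (Gas5, Snhg17, Snora3, Snora52 and Snora73a), to values between -0.0038 and 0.08 that did not pass either. With 1 pool left out in turn, the members lower at an unadjusted p under 0.05 numbered 10 to 18, with 4.31% to 5.69% of all clusters lower. The higher members numbered 0 to 1. At an FDR of 0.1 the members numbered 0 to 2, beside 0 to 13 of all clusters, and at an FDR of 0.05 they numbered 0 to 0. The particle protein genes at an unadjusted p under 0.05 numbered 0 to 4. The median differences then ran from -0.146 to -0.0675 for C/D, from -0.136 to -0.0768 for H/ACA and from -0.150 to -0.0851 for host genes. The count of lower members was 12 with an unmoderated linear model, with 5.79% of all clusters lower. At an FDR of 0.05, 4 members passed with a mean-variance trend (Snord118, Snord14e, Snord33 and Snord52). Arrays centred on the median, the mean over a gene's clusters and the filter above background gave 2 each. The calls over all clusters rose as well. At an FDR of 0.1 they numbered 17 in the main fit and 119 with the trend. They numbered 28 with arrays centred, 23 of 21559 with the mean over a gene's clusters and 38 of 14394 above background. At an FDR of 0.1, 0 members passed with all deposited clusters tested and 0 with the unmoderated model, and 0 of all clusters did in either. Repeated quantile normalization gave 2 higher members. The particle protein genes at an unadjusted p under 0.05 numbered 3 of 37 in the main fit, 5 with the trend, 5 above background and 8 unmoderated. With these 3 alternatives 6.72%, 8.75% and 5.79% of all tested clusters were lower. The count of 3 thus depended on the variance model and the filter.

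The labels number the pools 1 to 3 in both strains, but same-numbered pools had correlations of -0.0001, -0.04 and -0.02 between their deviations. With the replicate block, 18 members were lower (17 of them shared with the fit without it), with 5.12% of all clusters lower. Of the members 0 were higher and 0 passed an FDR of 0.1, which 6 of all clusters passed. At an unadjusted p under 0.05, 1 particle protein gene passed. Among named genes, 225 values under alternatives that kept all pools stayed on their side of the threshold, 11 lost it and 3, all of Snhg15, gained it. Snord52 has no value above background. The causes were not tested.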
